A study of Vitis vinifera with 18 samples.

Results

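Ripe berries of the red grapevine variety Cabernet Sauvignon (Vitis vinifera) from 2 vineyard sites in southern Italy, Molise and Campania, were compared by RNA sequencing of polyadenylated RNA. The comparison rests on 6 of the 18 libraries of the series, with 3 biological replicates per site. The design asked how genotype and growing environment act together on berry transcripts. Of 97442 transcript clusters in the table, the 24012 with 10 or more counts in at least 3 of the 6 libraries were kept. They fell into 23646 clusters counted in all 6 libraries, 8 on/off clusters and 358 others with a count of 0 in at least 1 library. An on/off cluster had 10 or more counts in every library of one site and none at the other.

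A grape berry ripens from the onset of colouring (veraison) to harvest, while sugar accumulates, acids are lost and the skin of red varieties fills with anthocyanins. Temperature, light and water supply are known to shift the transcripts of these pathways, flavonoid synthesis above all, and the site of a vineyard sets all of them at once. The table identifies clusters by number only, and 0 of the identifiers matched the gene table used here. No pathway could therefore be read from them, and the labelled tissue could not be checked against marker genes. The results describe how many transcripts differed, at which levels, by how much and in which libraries.

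Both groups were the same variety, grown in the open field on bush-trained vines and sampled when fully ripe. They differed in the label only by site. Each replicate was a pool of 10 berries ground without seeds, so skin and pulp were read together. In such pooled tissue, fewer cells of a type and less RNA per cell cannot be told apart. The 6 libraries held between 23198429 and 28141388 counts, and the kept clusters took 99.0% to 99.7% of them. The Aglianico libraries of the same sites, the second red variety of the series, serve below as independent samples. One of them, the library labelled Aglianico Campania replicate 3, went against the variety in its label. Across the 24012 clusters, kept by their Cabernet Sauvignon counts, the mean correlation of its log2 CPM with Cabernet Sauvignon Campania was 0.971 (3 libraries), against 0.911 with Aglianico Campania replicates 1 and 2. Comparisons with Aglianico are given with and without it.

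Cabernet Sauvignon berries from the 2 sites differed in a large share of the transcripts measured. Of the clusters counted in all 6 libraries, 2624 were higher (11.1%) and 2339 lower (9.89%) at Molise (edgeR quasi-likelihood test, adjusted p under 0.05). These 4963 were 21.0% of the 23646, close to the 21.1% called among all 24012 kept clusters. Most differences were modest. The median size of the log2 fold change was 0.85 among called clusters, against 0.39 among all clusters counted in all 6, and 2932 of the called ones differed by less than 2-fold. Called differences of at least 2-fold numbered 943 higher and 1088 lower, or 8.59% of the 23646. Normalised levels at the sites did not overlap for 4955 of the 4963, whereas 40.7% of all clusters counted in all 6 libraries showed no overlap.

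The number called depended on which libraries entered the fit. Over all 24012 kept clusters the fit on the 6 libraries called 5062. A fit on all 18 libraries called 1518 (830 higher, 688 lower; 6.32%, 3.46% and 2.87% of those tested), and 1502 of these were also called in the fit on 6. Without Cabernet Sauvignon Molise replicate 2 the fit on the remaining libraries called 3151. Upper-quartile scaling reversed the small surplus of higher over lower calls among clusters counted in all 6, to 2356 higher and 2750 lower.

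**Figure D1:**
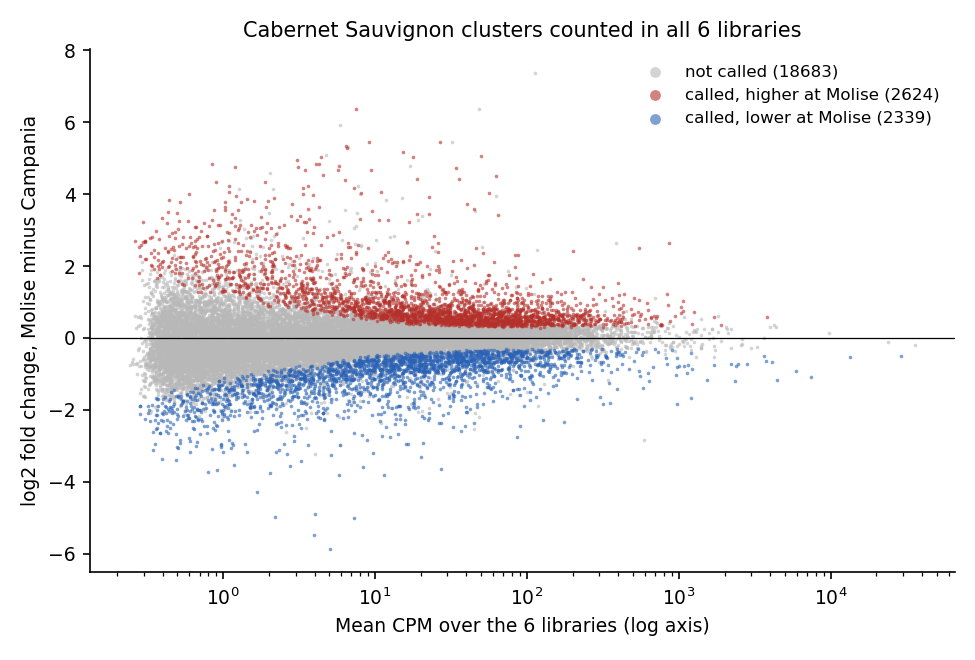
Log2 fold change (Molise minus Campania, vertical axis) against mean level (CPM, counts scaled to a common library size, over the 6 libraries, log axis) for the 23646 clusters counted in all 6 libraries. Red points are the 2624 called higher at Molise, blue points the 2339 called lower and grey points those not called. Called points lie closer to 0 at high levels than at low levels.

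Calls were more frequent among abundant transcripts, and the balance between directions changed with level. Below a mean of 1 CPM, 7.37% of 4927 clusters were called, rising to 17.0% of 8644 between 1 and 10 CPM and 30.5% of 8185 between 10 and 100 CPM. The share was 33.7% of 1803 clusters between 100 and 1000 CPM and 35.6% of 87 above that. The precision of a count rises with its size. The median size of a called log2 fold change fell from 2.05 in the lowest class to 0.56 between 100 and 1000 CPM. At 1000 CPM or more it was 0.74. Clusters of 100 to 1000 CPM leaned to Molise, with 384 higher and 224 lower. This lean held under TMM, RLE and upper-quartile scaling and without any 1 library, with 55.9% to 69.7% of the calls higher when a library was left out. Between 10 and 100 CPM the balance was 1389 higher and 1105 lower, but 1234 and 1334 under upper-quartile scaling. Below 1 CPM it was 167 higher and 196 lower, and from 1 to 10 CPM 675 and 792. Leaving out 1 library turned the first of these balances in 5 of 6 fits (47.9% to 57.2% higher) and the second in 2 of 6 (46.3% to 53.3% higher).

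**Figure D2:**
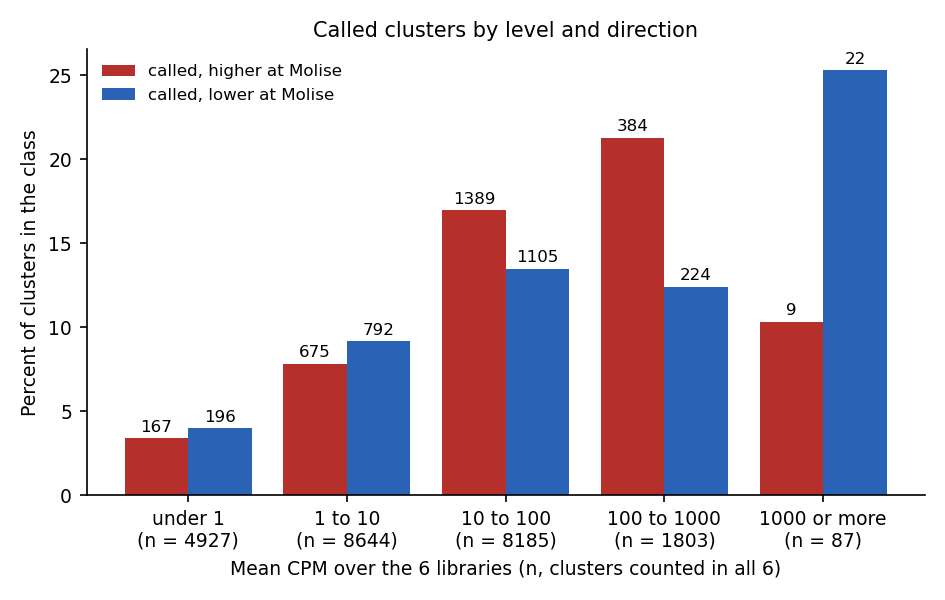
Percent of clusters called higher (red) or lower (blue) at Molise in each class of mean CPM, for clusters counted in all 6 libraries. Each bar carries its number of clusters. Higher calls outnumber lower ones between 100 and 1000 CPM (384 against 224), and the reverse holds at 1000 CPM or more (9 against 22).

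The most abundant transcripts went the other way. Of the 87 clusters at 1000 CPM or more, 22 were lower and 9 higher at Molise. These sets were chosen by their calls in the same 6 libraries, so how their shares differ follows largely from that choice. The 22 together held 11.6% ± 0.356 of all counts at Campania and 7.26% ± 0.478 at Molise (SD, n = 3). Their log2 fold changes ran from -1.66 to -0.42 with a median of -0.77, and 5 of them differed at least 2-fold. The 9 higher clusters held 1.10% ± 0.037 at Campania and 1.71% ± 0.0382 at Molise, with log2 fold changes of 0.35 to 1.02. The other 56 held nearly equal shares, 16.4% ± 0.59 and 16.2% ± 0.722. Without any 1 library, between 7 and 10 of these clusters were called higher and between 15 and 23 lower. The fit on all 18 libraries called only 2 higher and 2 lower, so at this level the calls rest on the fit on 6.

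The transcript pool was more concentrated in each Campania library than in any Molise library. The 20 most abundant clusters of a library took 18.7% to 19.8% of its counts at Campania and 14.6% to 16.8% at Molise, with no overlap between the sites. The means were 19.2% ± 0.567 and 15.6% ± 1.09 (SD, n = 3). An exact two-sided permutation test gave p = 0.1, the smallest that 3 libraries against 3 allow, and an adjusted p of 0.2 over 2 measures. The number of clusters with 10 or more counts overlapped, at 22365 to 25466 per library at Campania and 22604 to 24328 at Molise (exact permutation p = 0.8, adjusted p = 0.8). Campania replicate 1 had the highest number and Campania replicate 2 the lowest.

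Among clusters that both fits called, with at least 2-fold differences, no overlap and counts in all 6 libraries, 354 were higher and 468 lower at Molise. They come from the 2031 called with at least 2-fold differences in the fit on 6, which were 8.59% of the 23646. Of all 23646, 21.0% were called and 40.7% showed no overlap. The 2 most abundant in each direction are named here. Cluster-27903.29412 measured 160, 159.6 and 173 CPM in the Campania libraries and 1033, 916 and 863 CPM in the Molise libraries. The libraries of a site lay close together, and every Molise library was far above every Campania library. Its log2 fold change was 2.51 ± 0.11 (SE, adjusted p = 2.384e-05 by edgeR). Under the other settings tried it ranged from 2.46 to 2.60, always called. The call in the fit on 18 libraries was required by the naming rule, and the other settings reuse libraries that chose the cluster.

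The second of the higher clusters, Cluster-27903.32315, was more variable. It measured 185, 366 and 159.6 CPM at Campania and 935, 1999.9 and 1524 CPM at Molise. Every Molise library exceeded every Campania library, yet the lowest and highest libraries within each site were wide apart. The log2 fold change was 2.65 ± 0.47 (SE, adjusted p = 0.0181 by edgeR). The call was lost without Campania replicate 1 (adjusted p = 0.0838), without Campania replicate 3 (0.0542) and with no filter on low counts (0.0841), and its adjusted p ranged from 2.71e-06 to 0.178 over all alternatives.

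Of the lower clusters, Cluster-27903.32625 measured 1230, 1828 and 1530 CPM at Campania and 434, 375 and 484 CPM at Molise. All 3 Molise libraries lay far below the lowest Campania library, and the log2 fold change was -1.83 ± 0.16 (SE, adjusted p = 0.000263 by edgeR). Cluster-27903.33231 measured 1226, 1286 and 1353 CPM at Campania and 608, 629 and 649 CPM at Molise. Its spread was small at both sites, and its log2 fold change was -1.04 ± 0.10 (SE, adjusted p = 0.000317 by edgeR). Both calls held under every setting tried. The naming rule required the call in the fit on 18 libraries, and the other settings reuse libraries that chose these clusters.

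**Figure D3:**
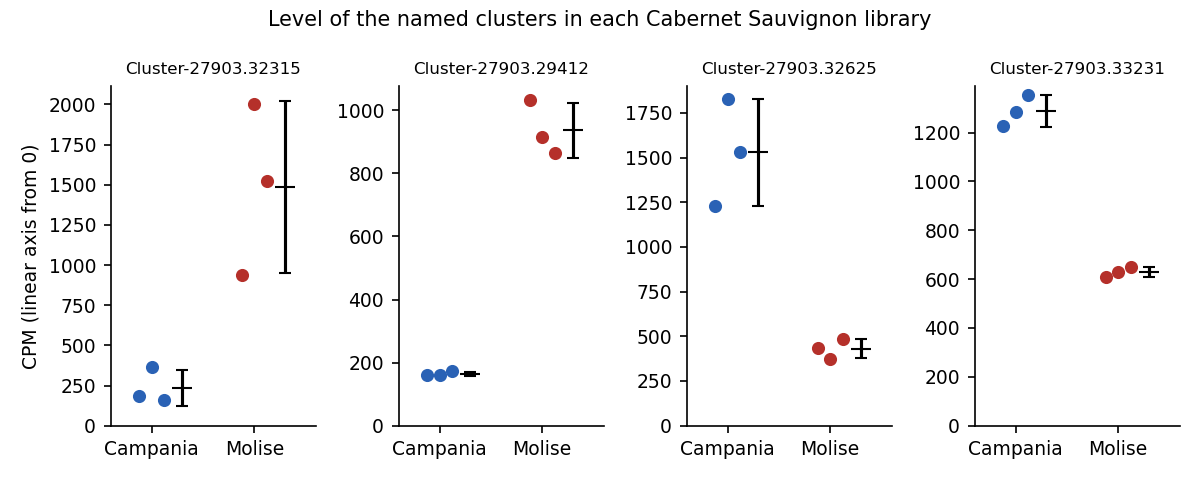
CPM in each of the 6 libraries for the 4 named clusters, with Campania in blue and Molise in red (1 point per library, linear axes from 0, scaled separately). The black bars give mean ± SD (n = 3). In each panel the sites do not overlap, and Cluster-27903.32315 has the widest spread at Molise (935 to 1999.9 CPM).

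The largest called changes, of at least 8-fold, were mostly increases at Molise. Of the clusters counted in all 6 libraries, 318 were called at least 4-fold higher and 221 at least 4-fold lower. At 8-fold or more there were 104 higher and 34 lower. The higher share at 8-fold was 75.4%, 71.3% under upper-quartile scaling, 73.4% in the fit on 18 libraries, and 67.7% to 80.0% when 1 library was left out. These were transcripts of low level. The 104 had a median of 4.84 CPM at Molise and 0.311 CPM at Campania, with the most abundant at 119 CPM. The 34 had a median of 3.9 CPM at Campania and 0.221 CPM at Molise. The widest called differences reached log2 fold changes of 6.37 and -5.86.

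Transcripts found at only one of the sites were few. Of the 8 on/off clusters, 7 were present at Molise and 1 at Campania. All 8 were called, which their definition nearly fixes, and nothing is read from that count. The most abundant was Cluster-27903.59677, singled out after its values were seen, with 834, 190 and 250 counts in the Molise libraries and none at Campania. Its mean of 16.1 ± 12.4 CPM (SD, n = 3) was at least 408-fold higher than 3 counts summed over the Campania libraries, which correspond to 0.0395 CPM. Such bounds cover counting error only. The remaining 6 clusters of Molise held only 11 to 51 counts per library, or means of 0.55 to 1.32 CPM, at least 13.9-fold to 33.3-fold higher. The single cluster of Campania, Cluster-27903.16670, also named after its values were seen, had 17, 20 and 14 counts there, a mean of 0.684 CPM and at least 17.4-fold higher than at Molise.

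At this depth the on/off class had no firm edge. With a minimum of 5 counts it held 35 clusters at Molise and 13 at Campania, and with a minimum of 20 counts 3 and 0. If 1 count per library was allowed at the site without the cluster, it held 13 and 6. Leaving out Campania replicate 1 raised the Molise clusters to 26, and leaving out Campania replicate 3 raised those of Campania to 18. A library left out removes a condition, so these counts could not fall, and nothing is read from the direction of the change. The other 358 clusters with a count of 0 had it only at Campania in 217 cases, only at Molise in 89 and at both sites in 52. Zeros among them were most frequent in Campania replicate 3 (199) and Campania replicate 2 (123), against 33 to 79 in the other libraries. Of these clusters 65 were called higher and 26 lower at Molise, but a cluster that passed the filter through 1 site had to differ, so this count is a description.

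The on/off clusters were also read in libraries outside the comparison. Cluster-27903.59677 had 0 counts in all 3 Cabernet Sauvignon Sicily libraries, all 3 Aglianico Sicily libraries and all 3 libraries labelled Aglianico Campania, but 14, 136 and 16 counts in Aglianico Molise. It was thus counted at Molise in both varieties and in no library of another site. Cluster-27903.16670 had 0 counts in Aglianico Campania replicates 1 and 2 and in all 3 Aglianico Molise libraries, and 16 counts in the library labelled Aglianico Campania replicate 3. This was not a transcript of Campania alone, with 578, 13 and 20 counts in Cabernet Sauvignon Sicily and 10 to 16 in Aglianico Sicily. Nor were most of the other 6 clusters of Molise limited to that site. Of these 6, 5 had counts in Cabernet Sauvignon Sicily, with up to 14939 in a library, and 5 had counts in Aglianico Campania replicates 1 and 2, with up to 16. The exception, Cluster-764.0, also named after its values were seen, had 0 counts in every Sicily and Campania library of both varieties. In Aglianico Molise it had 0, 3 and 1 counts.

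Spread within sites was of similar size. The median SD of log2 CPM over the clusters counted in all 6 libraries was 0.235 at Molise and 0.25 at Campania, and 55.7% of clusters had the larger SD at Campania. A pair of libraries lay apart from their site all the same. A principal component analysis used the 1000 clusters of highest variance. On its first component (54.5%), Molise replicates 1 and 2 scored 41.56 and 54.49 and Campania replicates 2 and 3 scored -52.14 and -64.29. Campania replicate 1 lay at 22.42, on the side of Molise, and Molise replicate 3 at -2.05. The second component, with 30.3%, set Campania replicate 1 (60.04) against Molise replicate 3 (-53.51). Over all 23646 clusters each library still correlated more closely with its own site, at mean correlations of 0.964 to 0.977, than with the other, at 0.940 to 0.948. Without these 2 libraries, an alternative chosen after seeing the data, 2953 clusters counted in all 6 were called, 1473 higher and 1480 lower.

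**Figure D4:**
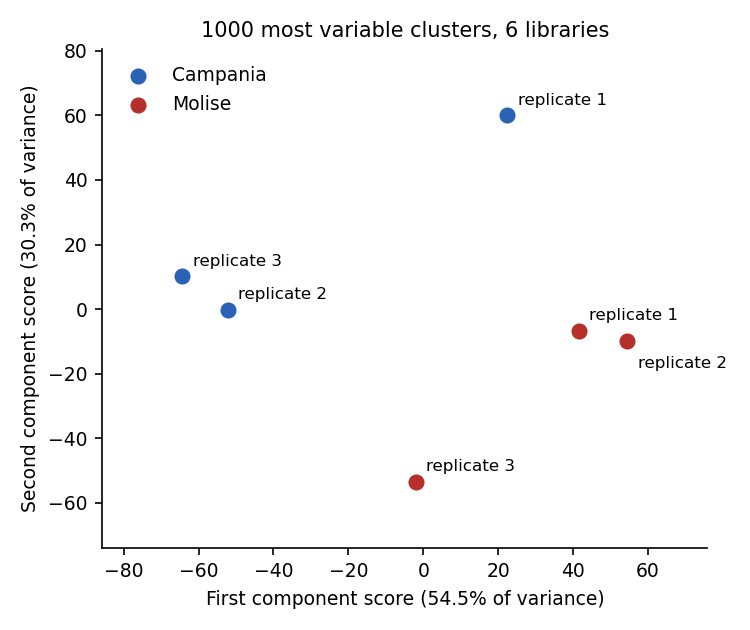
Scores of the 6 libraries on the first 2 principal components of the 1000 most variable clusters (log2 CPM). Campania is blue and Molise red. Replicates 2 and 3 of Campania and replicates 1 and 2 of Molise lie at opposite ends of the first component, while Campania replicate 1 and Molise replicate 3 lie at opposite ends of the second.

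In Aglianico, whose libraries had no part in choosing the clusters, the median differences of the same transcripts between these sites were smaller. The clusters were selected for their difference in Cabernet Sauvignon, which by itself favours the larger value there. Without the library labelled Aglianico Campania replicate 3, 60.7% of the 4963 called clusters had the same sign of log2 fold change in Aglianico, against 58.3% of all 23646. The directions were unlike. Clusters called higher shared the sign in 66.2% of cases, against 58.6% of all clusters that were higher, whereas those called lower did so in 54.6%, below the 58.0% of all clusters that were lower. With the doubted library included, the shares were 74.7% (61.3%) for higher and 74.0% (68.1%) for lower, and 74.4% of all called clusters, against 64.9% of all 23646. Among the 539 clusters changed at least 4-fold in Cabernet Sauvignon the share was 69.8% without that library and 83.5% with it. Called increases of at least 2-fold had a median log2 fold change of 1.62 in Cabernet Sauvignon and 0.46 in Aglianico (0.60 with the doubted library). The matching decreases had medians of -1.48 and -0.16 (-0.58 with it). Aglianico gave 24 calls of its own with 5 libraries (0.1% of those tested). Of these, 17 were also called in Cabernet Sauvignon, where 21.0% of all 23646 were called. The direction was the same for 15 of the 17, while 58.3% of all 23646 shared the sign. With all 6 Aglianico libraries there were 0 calls by edgeR, while 2957 clusters had an unadjusted p under 0.05.

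Whether the site difference itself depended on variety was tested by an interaction term. With all 12 libraries of both varieties, 3 clusters passed (0.0125% of those tested) and 3048 had an unadjusted p under 0.05. Without the library labelled Aglianico Campania replicate 3, 732 passed (3.05%). The signed log2 fold change, Molise minus Campania, was higher in Cabernet Sauvignon than in Aglianico for 336 and lower for 396. A lower signed value can be a stronger decrease at Molise, so this split does not rank the sizes of the site differences. In 550 of the 732, all counted in all 6 libraries, Cabernet Sauvignon had a call of its own, while 21.0% of all 23646 were called. Of the 550, 267 were higher and 283 lower at Molise, and 498 had the opposite direction in Aglianico and 52 the same. The interaction contains the same Cabernet Sauvignon values and favours opposite directions, so nothing is read from these counts. Cluster-27903.29412 was among the 550, and it was named for its Cabernet Sauvignon difference, which favours a larger interaction here. Its site difference was 2.33 ± 0.36 log2 units greater in Cabernet Sauvignon (SE, adjusted p = 0.0106 by edgeR). With all 12 libraries it was 2.28 ± 0.34 and did not pass (adjusted p = 0.074 by edgeR). The log2 fold change in Aglianico was 0.18 ± 0.34 without the doubted library and 0.23 with it. The other named clusters passed neither way, at adjusted p of 0.0978 (0.617 with all 12 libraries) for Cluster-27903.32315, 0.0859 (0.219) for Cluster-27903.32625 and 0.323 (0.380) for Cluster-27903.33231.

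The 3 clusters that passed with all 12 libraries are named after their values were seen. No cluster passed by edgeR when any 1 of Cabernet Sauvignon Campania replicates 1, 2 and 3 or Aglianico Molise replicates 1 and 3 was left out, with unadjusted p under 0.05 for 2199 to 2641 clusters. Without each Cabernet Sauvignon Molise library 1 passed, and DESeq2 on all 12 called 546. Leaving out Aglianico Campania replicate 1 gave 110 calls, Aglianico Campania replicate 2 gave 4 and Aglianico Molise replicate 2 gave 18. A pair of the 3 followed one pattern. Cluster-27903.28081 measured 24.1, 26.8 and 27.2 CPM at Campania and 71.5, 72.5 and 72.3 CPM at Molise in Cabernet Sauvignon, and its log2 fold change was 1.47 ± 0.10 (SE, adjusted p = 9.227e-05 by edgeR). Cluster-27903.29365 measured 18.8, 19.3 and 20.7 CPM at Campania and 64.5, 56.5 and 55.4 CPM at Molise, and its log2 fold change was 1.59 ± 0.11 (SE, adjusted p = 9.921e-05 by edgeR). Neither showed overlap between the sites, and the replicates of a site lay close together, which the interaction test on the same values favours. In Aglianico without the doubted library their log2 fold changes were -0.43 ± 0.23 and -0.32 ± 0.21, and with it -0.32 and -0.21, not called either way. The third, Cluster-27903.34611, was the reverse case, with 0.29 ± 0.31 in Cabernet Sauvignon (adjusted p = 0.571) and -5.31 ± 0.45 in Aglianico without the doubted library (adjusted p = 0.00846 by edgeR). With that library the Aglianico value was -5.51 and was not called (adjusted p = 0.0591 by edgeR).

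The libraries outside the comparison were also placed between the 2 Cabernet Sauvignon site means, on log2 CPM scaled over 18 libraries, for the 2031 called clusters that differed at least 2-fold. The library labelled Aglianico Campania replicate 3 lay nearer to the Cabernet Sauvignon Campania mean for 92.9% of them, against 58.2% and 32.6% for Aglianico Campania replicates 1 and 2. Aglianico Molise lay nearer to Campania for 26.1% to 39.5% and Aglianico Sicily for 60.2% to 63.7%. Cabernet Sauvignon Sicily was divided, at 50.02% for the unnumbered library (its column has no legible replicate number), 51.9% for replicate 3 and 33.2% for replicate 2. Over all 23646 clusters the shares ran from 38.9% to 70.9%, the highest again in the library labelled Aglianico Campania replicate 3.

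**Figure D5:**
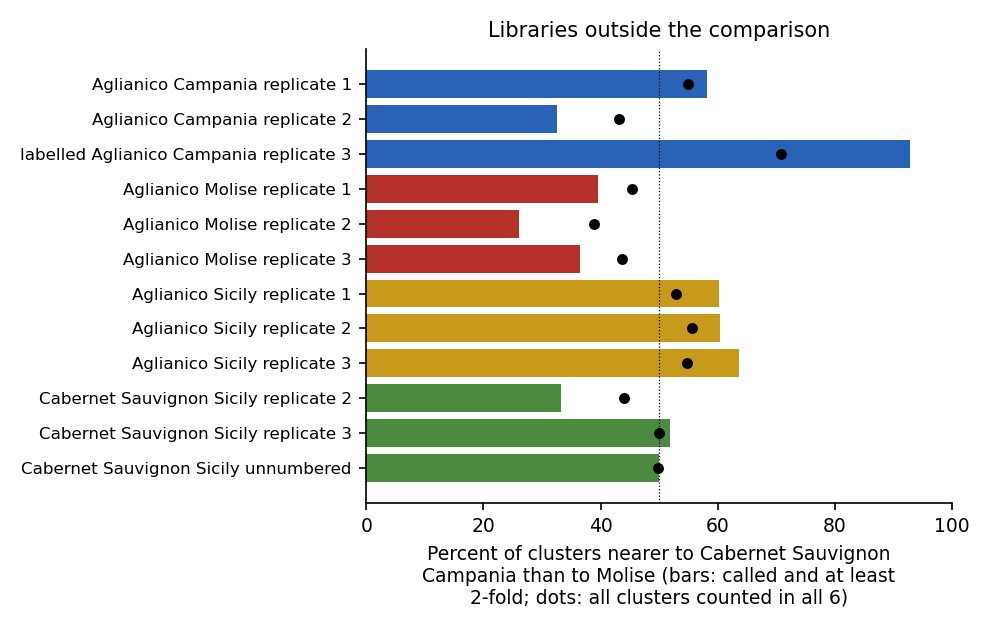
Percent of clusters for which a library outside the comparison lay nearer to the Cabernet Sauvignon Campania mean than to the Molise mean (bars: the 2031 called clusters with at least 2-fold differences; black dots: all 23646 clusters counted in all 6 libraries; dotted line: equal shares). The library labelled Aglianico Campania replicate 3 has the highest bar, at 92.9%, and Aglianico Molise replicate 2 the lowest, at 26.1%.

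The named clusters took different places at Sicily, on CPM scaled over 18 libraries. Cluster-27903.32315 measured 1427 to 1701 CPM in Cabernet Sauvignon Sicily, within the Molise range of 808 to 1751 CPM on that scale and above the Campania range of 139.7 to 316 CPM. In Aglianico it was far more abundant, at 4108 to 13765 CPM in the 8 libraries other than the one labelled Campania replicate 3, which held 290.2 CPM. Cluster-27903.29412 measured 227 to 340.5 CPM in Cabernet Sauvignon Sicily, between Campania (138 to 151 CPM) and Molise (755 to 893 CPM). Among the 18 libraries, the 3 of Cabernet Sauvignon Molise held the highest levels of this transcript. Cluster-27903.32625 measured 734 to 1502 CPM in Cabernet Sauvignon Sicily, above Molise (329 to 423 CPM), with Campania at 1086 to 1579 CPM. Cluster-27903.33231 measured 637 to 1234 CPM there, also above Molise (525 to 568 CPM), with Campania at 1082 to 1185 CPM.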

How the data were processed

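The authors deposited expected counts, estimates of the reads per transcript cluster, with no scaling to depth; 6.77% to 7.78% of the values of the 6 libraries were not whole. CASAVA 1.8, RSEM and DESeq2 appear without a role, per the submitters' processing notes; the aligner, the assembler and a build were not given in the sources used here. Related genes or alleles can share reads, which leaves some uncertainty in the level of any 1 cluster. Columns were matched to samples by name; 1 Cabernet Sauvignon Sicily column was matched to its group only.

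Counts were rounded and scaled by TMM, and CPM were computed from them. Sites were compared with the quasi-likelihood test of edgeR 4.0.16 (R 4.3.3, robust) on the 6 libraries, with Benjamini-Hochberg adjustment over all kept clusters and a threshold of 0.05. Standard errors were derived from the fold change and the F statistic. The interaction was fitted on 12 libraries with 4 group means. Principal components used log2 CPM with a prior count of 2. Scripts were tested on simulated data. Between any 2 of the 6 libraries the chi-square per degree of freedom was at least 21.7 (over clusters with 20 or more counts in sum), so none was a copy of another. Just inside the filter lay 555 clusters (median 0.374 CPM) and, 1 count short of it, 689 (0.337 CPM).

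The comparison, its filter, the fit on 6 libraries and the naming rule were chosen with earlier results of these data known, including the calls of the fits on 6 and on 18 libraries. The rule named the 2 most abundant clusters per direction that were called in both fits, differed at least 2-fold without overlap and had counts in all 6 libraries. Alternatives were other scalings, DESeq2 1.42.0, limma-voom (limma 3.58.1), other filters, other sets of libraries, a replicate block and leaving out each library.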

Additional observations from a re-analysis of the deposited data

Results flagged for a closer look

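The response to site differed between varieties by the interaction term for 3 clusters with all 12 libraries, and for 732 when the library labelled Aglianico Campania replicate 3 was left out. The count was 110 when Aglianico Campania replicate 1 was left out instead. The part of the doubted library's sample identity in the rise to 732 was not tested beyond leaving it out. Of the named clusters, Cluster-27903.29412 differed by 2.33 ± 0.36 log2 units without the library labelled Aglianico Campania replicate 3 (SE, adjusted p = 0.0106 by edgeR). With all 12 it differed by 2.28 ± 0.34 (adjusted p = 0.074 by edgeR). All 3 Cabernet Sauvignon Molise libraries lay above all 3 of Campania, which the naming rule required. The interaction contains those same values, so the naming rule favours a larger interaction for this cluster. With all 12 libraries, the interaction was 5.79 ± 0.56 for Cluster-27903.34611, 1.79 ± 0.22 for Cluster-27903.28081 and 1.79 ± 0.20 for Cluster-27903.29365 (SE, adjusted p = 0.0107, 0.0213 and 0.0134 by edgeR).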

How the results depend on the processing

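Calls over all kept clusters and calls among clusters counted in all 6 libraries stayed within 1.5 times of 5062 and 4963 under 12 of 17 alternatives each, scaling, DESeq2, limma-voom and both filters included. They were 3019 and 2940 in a fit on 9 Cabernet Sauvignon libraries, 1518 and 1475 on all 18, 3048 and 2971 on 15 (leaving out the library labelled Aglianico Campania replicate 3 and all Cabernet Sauvignon Sicily libraries other than replicate 3), and 3131 and 2953 without both Campania replicate 1 and Molise replicate 3. Leaving out 1 library gave 3151 to 3994 and 3081 to 3912. The cause of these falls was not tested. With the replicate block the counts were 5217 and 5121. Same-numbered libraries deviated together only weakly (correlations of 0.198, 0.131 and 0.074), not every library correlated best with its own number, and the numbers were not taken as pairs. The median log2 fold change of the clusters counted in all 6 was -0.04 under TMM, -0.03 under RLE and -0.09 under upper-quartile scaling. Of the named clusters, the alternatives lost 4 calls of Cluster-27903.32315 and none of the other 3, and no direction changed. The naming rule fixed the calls in the fit on 18 libraries, and the other alternatives reuse libraries that chose the clusters.

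On/off clusters at Molise and Campania (7 and 1) were 35 and 13 with 5 counts, 3 and 0 with 20 counts, 13 and 6 with 1 count allowed, and 12 to 26 and 2 to 18 when 1 library was left out. Leaving out a library removes a condition, so those counts could not fall. Interaction calls (3) were 21 in a fit on 18 libraries, 546 by DESeq2 and 0 to 732 when 1 library was left out. They rose to 110 without Aglianico Campania replicate 1 and to 18 without Aglianico Molise replicate 2. They were 0 by edgeR without each of Aglianico Molise replicates 1 and 3 and Cabernet Sauvignon Campania replicates 1, 2 and 3, where 2199 to 2641 clusters had an unadjusted p under 0.05. The share with the same sign in Aglianico was 74.4% with the library labelled Aglianico Campania replicate 3, against 60.7%. The difference in the share of the 20 most abundant clusters (-3.56 percentage points) ranged from -4.14 to -3.06. That in detected clusters (-450 at Molise) ranged from -1233 to 317 when 1 library was left out, the last without Campania replicate 1, and was -1726 when 1 count sufficed for detection.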
